A study of Homo sapiens with 6 samples.

Results

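The canonical Wnt pathway was examined through 10 of the 17047 genes of the deposited expression table: CTNNB1, APC, AXIN1, AXIN2, TCF7, TCF7L2, ASCL2, NKD1, ZNRF3 and RNF43. They were taken by gene symbol from a list given by name. The libraries came from HCT116, an established human colorectal carcinoma cell line known to carry an activating mutation of CTNNB1, so all 6 share that background. The shNC group held 3 libraries of cells with a non-targeting shRNA, and the PLEK2 shRNA group held 3 libraries of cells with an shRNA against PLEK2, both delivered by viral vectors. The labels give no time after transduction, a single PLEK2 shRNA is described, and nothing says that the 3 libraries of a group came from separate cultures, so p-values measure the spread between these libraries only. Polyadenylated RNA was read once per fragment in 50-base reads, and the estimated read counts summed to between 14377532 and 15602732 per library. Of the 10 genes, 9 passed edgeR's default filter on low counts, as did 12959 genes in all. ASCL2 did not pass.

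In canonical Wnt signaling, a destruction complex built on the scaffolds APC and AXIN1 marks β-catenin, the product of CTNNB1, for degradation until a Wnt ligand engages its receptors. β-catenin that escapes enters the nucleus and acts with TCF factors such as TCF7 and TCF7L2. Targets such as AXIN2, NKD1, ZNRF3 and RNF43 feed back to dampen the pathway, and ASCL2 is a target that sets the intestinal stem cell program. In colorectal carcinoma the pathway is usually kept active by loss of APC or, as in HCT116, by a β-catenin that resists the destruction complex.

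Sequences are shown for the shRNA that parts the groups and for the promoters that hold a TCF motif, among those available for 6 of the 10 genes. The shRNA target lies at chr14:67397753-67397773 on the minus strand of GRCh38, in exon 2 of 9 of the canonical PLEK2 transcript of GENCODE 44, within the coding sequence. The capitals mark the site that pairs with bases 2 to 8 of the guide, and in the guide they mark those bases.
PLEK2 shRNA target: gctggtgtactacAAGCTTGa
PLEK2 shRNA guide: tCAAGCTTgtagtacaccagc
Among the transcripts searched, the full target was found in those of 1 gene, PLEK2. The 7-base site AAGCTTG was present in the annotated 3′ UTR of 0 of the 10 Wnt genes, and of 1310 of 12461 tested genes with such an annotation (10.5%). The RefSeq promoter table (250 bases before to 50 after a transcript start, GRCh38.p14) held 11 promoters for 6 of the 10 genes (CTNNB1, APC, AXIN1, TCF7, TCF7L2 and RNF43). A TCF site was searched on both strands as CTTTG followed by AT, AA, TT or TA. It was found in 2 of these 11 promoters, and in 4829 of all 35116 promoters (13.8%). Both matches, in capitals below with 11 bases on either side, were in promoters of TCF factors.
TCF7: ggccccactggAACAAAGgaggagagagg
TCF7L2: aaaatatcaggCTTTGTTcttttgattga
The first is at chr5:134123557-134123585 (plus strand), with the match read on the opposite strand 50 bases before the start, and the second is at chr10:113126489-113126517 (plus strand), 133 bases before the start. A match is a run of letters, not a shown binding site.

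The targeted gene was checked first. PLEK2 stood at 85.97, 72.63 and 82.88 CPM (each library's share of counts, TMM-scaled in edgeR) in shNC replicates 1, 2 and 3, and at 16.02, 32.19 and 34.95 CPM in PLEK2 shRNA replicates 1, 2 and 3. The groups did not overlap, and replicate 1 of the knockdown was the lowest library. The log2 fold change of PLEK2 (PLEK2 shRNA over shNC) was -1.54 with a standard error of 0.24, and the quasi-likelihood test of edgeR gave it an adjusted p of 0.684 (Benjamini-Hochberg). DESeq2's Wald test, also without the block, put it at -1.53 with an adjusted p of 5.09e-07. With the replicate number as a block, so that same-numbered libraries were compared as pairs, it was -1.57 with a standard error of 0.17 and an adjusted p of 0.00106 from edgeR. When PLEK2 shRNA replicate 1 was left out, the test without the block also called the gene (log2 fold change -1.26, adjusted p 0.0106 from edgeR). Later fits used this test and adjustment over the 12959 genes, and an adjusted p under 0.05 counts as called.

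Among the Wnt genes no difference between the groups larger than the spread between libraries was found. Of the 9 genes tested, 0 were called without the block, where 0.0% of all tested genes were called, and 0 were called with it, where 0.849% were. DESeq2's Wald test without the block (0.0926% of genes called) also called 0 of the 9. So did limma-trend on FPKM, which called 0 of all tested genes and thus not PLEK2 either. With the block, DESeq2 gave an adjusted p for 6 of the 9, not for AXIN1, AXIN2 and NKD1, and called 0 of these 6 (1.0% of the genes with an adjusted p). At an unadjusted p under 0.05 the count was also 0 of 9, against 3.09% of all tested genes without the block and 18.3% with it. The study's cut-off of a p under 0.05 with at least 1.5-fold was applied to the unadjusted p of edgeR. The study does not say whether its p was adjusted, and its own analysis was not repeated. Of the 9 genes 0 met the cut-off, which 0.463% of tested genes met without the block and 0.756% with it. The CPM ranges of the groups overlapped for all 9. Over all tested genes 9.21% had ranges that did not overlap, so 0 of 9 does not set these genes apart.

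Levels within the line were compared per transcript length, on the FPKM scale. Averaged over the 6 libraries, CTNNB1 stood highest with 88.93 FPKM, above 94.9% of the genes in the table. TCF7L2 followed with 44.2 FPKM, then RNF43 with 26.9 and TCF7 with 26.07 FPKM. AXIN1 (8.73 to 10.66 FPKM over the 6 libraries), AXIN2 (mean 8.24 FPKM), ZNRF3 (6.89 FPKM) and APC (5.18 FPKM) lay near the middle of the table, with 61.7%, 57.7%, 54.1% and 49.2% of genes below them. NKD1 had 2.35 FPKM, with 39.2% of genes below it, and ASCL2 had 0.01 FPKM. In this order, the shNC ranges of RNF43 and TCF7 overlapped, as did those of AXIN1 and AXIN2 and those of AXIN2 and ZNRF3. Within each of the 6 libraries, however, AXIN2 was above ZNRF3, and with PLEK2 shRNA their ranges were apart (7.44 to 8.36 against 6.58 to 7.4 FPKM). ZNRF3 and APC were apart in shNC (6.51 to 7.26 against 4.54 to 5.91 FPKM), but not over all 6 libraries, since APC reached 6.78 FPKM in PLEK2 shRNA replicate 1.

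**Figure D1:**
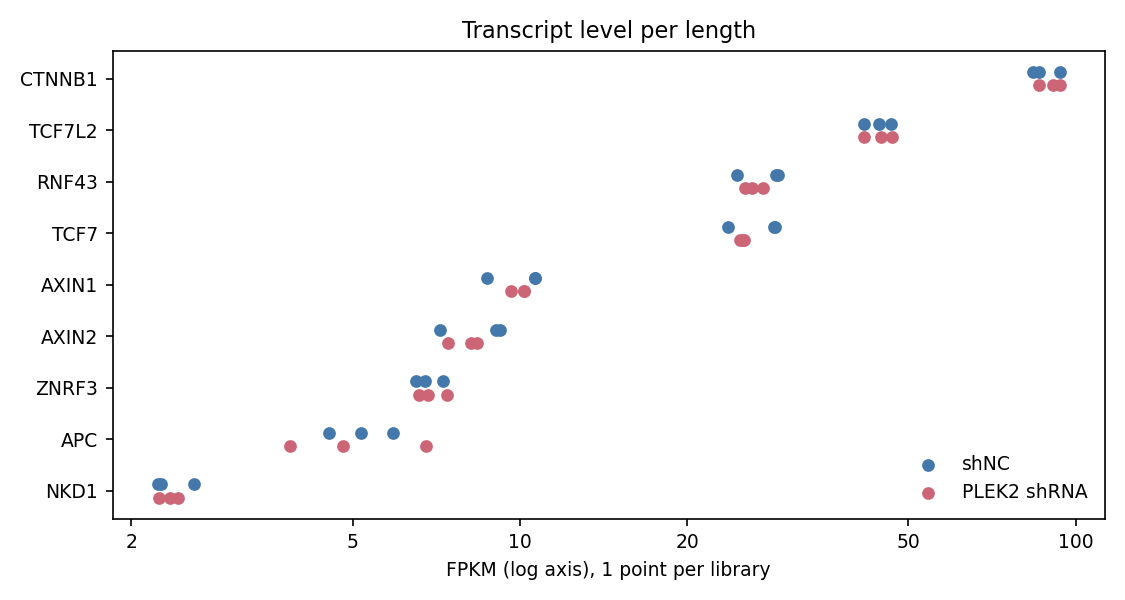
FPKM (log axis) of the 9 tested Wnt genes, 1 point per library, with shNC above and PLEK2 shRNA below on each line. CTNNB1 is the highest in every library, at 83.75 to 93.59 FPKM, NKD1 the lowest, at 2.23 to 2.59 FPKM, and the points of the groups share their range on every line.

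CTNNB1 (NCBI Gene 1499; GRCh38 chromosome 3, 41194741 to 41260096, plus strand) encodes β-catenin itself. Its transcript stood at 308.49, 273.3 and 275.63 CPM in shNC replicates 1, 2 and 3 and at 271.28, 291.97 and 296.86 CPM in PLEK2 shRNA replicates 1, 2 and 3. The highest shNC library was replicate 1, and the same number gave the lowest knockdown library. The group means were 285.81 ± 19.68 and 286.7 ± 13.58 CPM (SD, n = 3 each), and the fit with the block put the log2 fold change at 0.01 (standard error 0.06, 95% interval -0.13 to 0.14, adjusted p 0.976 from edgeR). RNA counts per gene do not separate the mutant from the normal allele, nor do they measure the protein.

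The scaffolds of the destruction complex differed from each other in how steady they were. APC (NCBI Gene 324; GRCh38 chromosome 5, 112707518 to 112846239, plus strand), the large scaffold that is lost in most colorectal tumors, stood at 63.55, 54.91 and 47.57 CPM with shNC and at 70.19, 50.33 and 39.98 CPM with PLEK2 shRNA. It had the widest spread of the 9 genes, with a coefficient of variation of 14.5% in shNC and 28.7% in PLEK2 shRNA, against 3.49% from counting alone. The order of the libraries was the same in both groups, with replicate 1 highest and replicate 3 lowest. The standard error of its log2 fold change was accordingly 0.20 without the block (-0.05) and 0.08 with it (-0.07, 95% interval -0.23 to 0.09, adjusted p 0.666 from edgeR). The log2 ratios within pairs 1, 2 and 3 were 0.14, -0.13 and -0.25, so the direction was mixed.

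AXIN1 (NCBI Gene 8312; GRCh38 chromosome 16, 287440 to 352723, minus strand), the constitutive partner of APC, stood at 30.24, 35.43 and 34.62 CPM with shNC and at 31.92, 34.82 and 34.29 CPM with PLEK2 shRNA. Replicate 1 was the lowest library of both groups, the reverse of APC. The log2 fold change of AXIN1 with the block was 0.01 (standard error 0.07, 95% interval -0.14 to 0.16, adjusted p 0.951 from edgeR).

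Of the TCF factors, TCF7L2 had the narrowest 95% interval of the 9 genes with the block. That of TCF7 was about as wide as those of RNF43 and ZNRF3. TCF7L2 (NCBI Gene 6934; GRCh38 chromosome 10, 112950247 to 113167678, plus strand), the main TCF factor of the intestinal epithelium, stood at 162.82, 171.37 and 181.19 CPM with shNC and at 156.97, 168.32 and 177.25 CPM with PLEK2 shRNA. The libraries kept 1 order in both groups, from replicate 1 lowest to replicate 3 highest, and each knockdown library lay just under its shNC partner. It was the 1 gene of the 9 with the same direction in all 3 pairs (log2 ratios -0.05, -0.03 and -0.03), which 40.9% of tested genes showed. Its log2 fold change with the block was -0.04 (standard error 0.05, 95% interval -0.15 to 0.07, adjusted p 0.743 from edgeR). On the FPKM scale with limma-trend the change was 0.00, so the small shift did not hold across scalings.

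TCF7 (NCBI Gene 6932; GRCh38 chromosome 5, 134114681 to 134151865, plus strand), which encodes TCF1, stood at 85.12, 70.94 and 82.74 CPM with shNC. With PLEK2 shRNA it stood at 72.29, 73.39 and 74.59 CPM, inside the shNC range and with a coefficient of variation of 1.57% against 9.54% in shNC. It had the smallest adjusted p of the 9 genes with the block (0.37 from edgeR), with a log2 fold change of -0.11 (standard error 0.06, 95% interval -0.25 to 0.03). Counts of TCF7 carried decimals in 4 of 6 libraries, which marks reads shared with other genes or placed by estimate, so its level is less certain than those of genes with whole counts. Per length, TCF7L2 was 1.65 ± 0.21 times TCF7 in shNC and 1.76 ± 0.1 times in PLEK2 shRNA (ratio of FPKM, SD, n = 3). Counts per gene do not separate the short TCF7 isoforms that lack the β-catenin binding domain from the long ones.

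**Figure D2:**
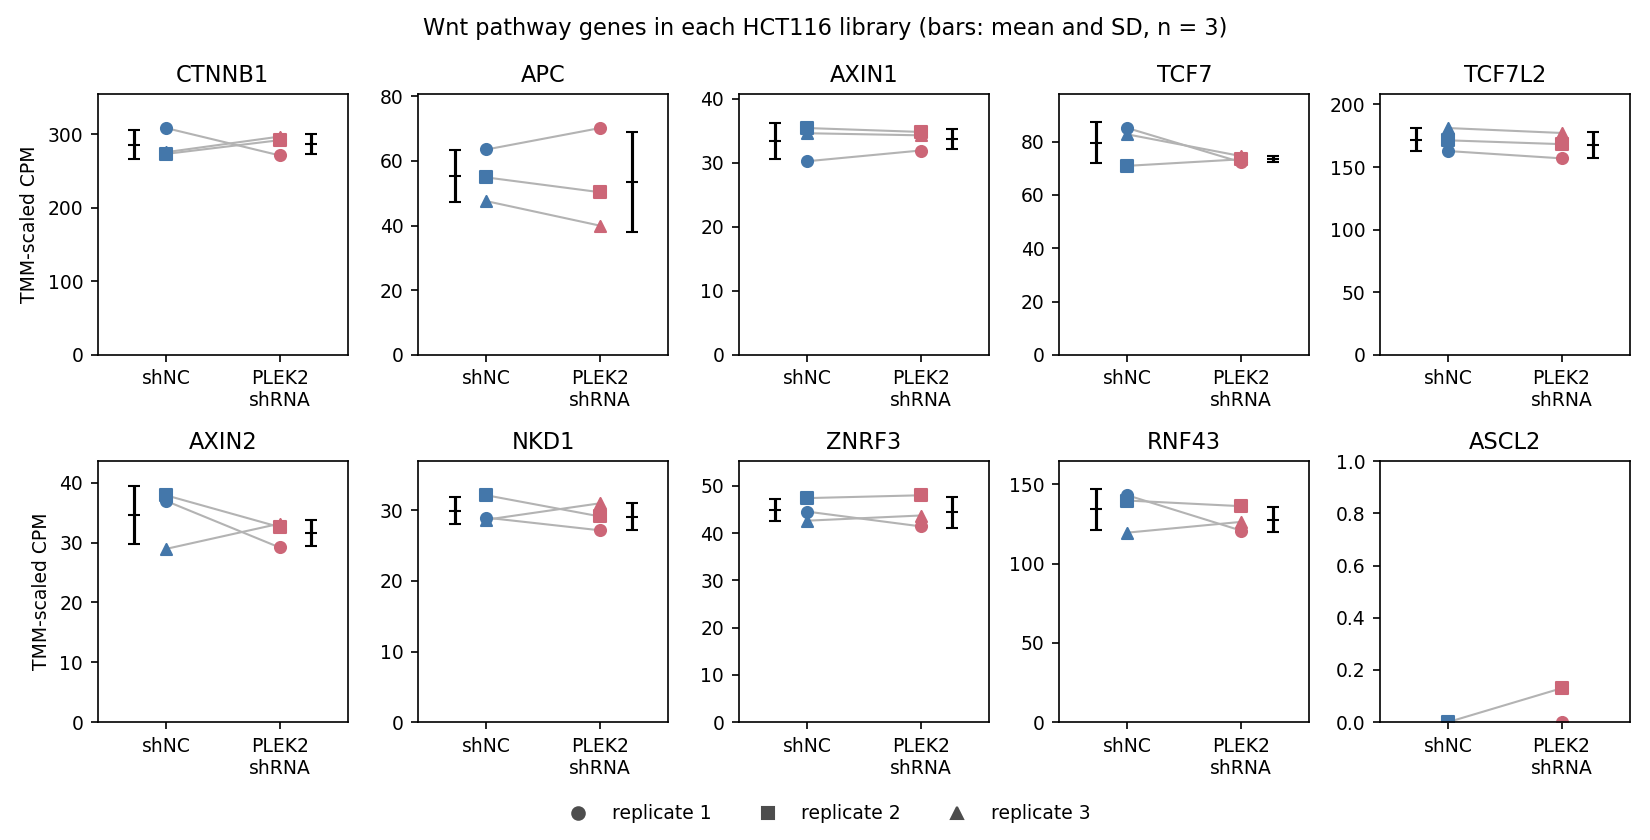
TMM-scaled CPM of the 10 Wnt genes in each library, with lines joining same-numbered libraries and black bars for mean and SD (n = 3) where the gene was tested. All axes start at 0. The groups overlap in every panel with a tested gene, APC spreads most (39.98 to 70.19 CPM) and ASCL2 lies at or next to 0.

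The feedback genes were all measured well enough to be tested. AXIN2 (NCBI Gene 8313; GRCh38 chromosome 17, 65528563 to 65561648, minus strand), a scaffold whose transcription β-catenin drives and which is widely used as a readout of the pathway, stood at 36.96, 37.9 and 28.94 CPM with shNC and at 29.18, 32.59 and 33.16 CPM with PLEK2 shRNA. Replicate 3 was the lowest shNC library but the highest knockdown library, so the pairs went in both directions (log2 ratios -0.34, -0.22 and 0.20). The log2 fold change of AXIN2 was -0.13 in both fits, the largest size among the 9 genes, with a standard error of 0.13 without the block and 0.09 with it (95% interval with the block -0.33 to 0.08, adjusted p 0.502 from edgeR). The group means were 34.6 ± 4.92 and 31.64 ± 2.15 CPM (SD, n = 3 each). Per length, AXIN1 was 1.2 ± 0.26 times AXIN2 in shNC and 1.25 ± 0.04 times in PLEK2 shRNA.

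RNF43 and ZNRF3 encode membrane ubiquitin ligases that remove Frizzled receptors from the cell surface. RNF43 (NCBI Gene 54894; GRCh38 chromosome 17, 58353676 to 58417595, minus strand) stood at 143.13, 139.82 and 119.57 CPM with shNC and at 120.86, 136.26 and 126.35 CPM with PLEK2 shRNA. The lowest library was shNC replicate 3, and the knockdown values lay between it and the other shNC libraries. With the block its log2 fold change was -0.07 (standard error 0.06, 95% interval -0.21 to 0.07, adjusted p 0.606 from edgeR).

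ZNRF3 (NCBI Gene 84133; GRCh38 chromosome 22, 28883572 to 29057488, plus strand) stood at 44.58, 47.43 and 42.65 CPM with shNC and at 41.45, 48.03 and 43.75 CPM with PLEK2 shRNA. Replicate 2 was the highest library of both groups. Its log2 fold change with the block was -0.02 (standard error 0.06, 95% interval -0.16 to 0.12, adjusted p 0.921 from edgeR), and its counts carried decimals in 4 of 6 libraries. RNF43 exceeded ZNRF3 by 4.02 ± 0.25 times in shNC and 3.79 ± 0.09 times in PLEK2 shRNA (ratio of FPKM, SD, n = 3).

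NKD1 (NCBI Gene 85407; GRCh38 chromosome 16, 50548396 to 50649249, plus strand), which binds Dishevelled and restrains the pathway inside the cell, stood at 28.94, 32.11 and 28.66 CPM with shNC and at 27.15, 29.11 and 30.98 CPM with PLEK2 shRNA. Its log2 ratios within pairs were -0.09, -0.14 and 0.11, and with the block its log2 fold change was -0.04 (standard error 0.08, 95% interval -0.21 to 0.13, adjusted p 0.82 from edgeR). The groups overlapped over most of their range.

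ASCL2 (NCBI Gene 430; GRCh38 chromosome 11, 2268498 to 2270588, minus strand), the transcription factor of the intestinal stem cell, had 0 counts in 5 of 6 libraries and 2 counts in PLEK2 shRNA replicate 2. All 6 libraries lay under the limit of 3 counts that a count of 0 allows, which is 0.192 to 0.209 CPM per library, and this limit covers counting error only. A level below it, and any difference between the groups, was not detectable at this depth. LGR5, another stem cell gene that Wnt drives, was looked up after the values of ASCL2 were seen. It had 0, 0 and 3 counts with shNC and 1, 1 and 0 with PLEK2 shRNA.

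Read as a group, the 9 tested genes had values close to 0. Their median log2 fold change with the block was -0.041, against -0.002 over all tested genes, and the median size of the change was 0.041, against 0.098. The 9 genes had mean counts of at least 442, and the tested genes included many with fewer counts. The sizes were thus not compared at like counts, and they do not show that the 9 genes were steadier than others. In the fit with the block 7 of them had values below 0 and 2 above. That split was 6 and 3 with library totals in place of TMM, and 5 and 4 with limma-trend on FPKM. The medians of the 9 log2 ratios were -0.11, -0.03 and 0.04 in pairs 1, 2 and 3, and 2, 3 and 5 of the 9 were higher with PLEK2 shRNA. The 95% intervals ran from -0.33 to 0.16 with the block and from -0.49 to 0.40 without it. In the main fit, without the block, each gene's interval was wider than with it. It was -0.18 to 0.19 for CTNNB1, -0.22 to 0.24 for AXIN1, -0.22 to 0.15 for TCF7L2 and -0.33 to 0.09 for TCF7. For RNF43 it was -0.29 to 0.15, for ZNRF3 -0.23 to 0.2 and for NKD1 -0.27 to 0.19. The widest of the 9 were those of APC, at -0.49 to 0.40, and of AXIN2, at -0.41 to 0.16. The smallest adjusted p of the 9 in the main fit was 0.968 from edgeR. All intervals of both fits lay within a 1.5-fold change in either direction (0.58 on the log2 scale), whereas PLEK2 was outside it.

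**Figure D3:**
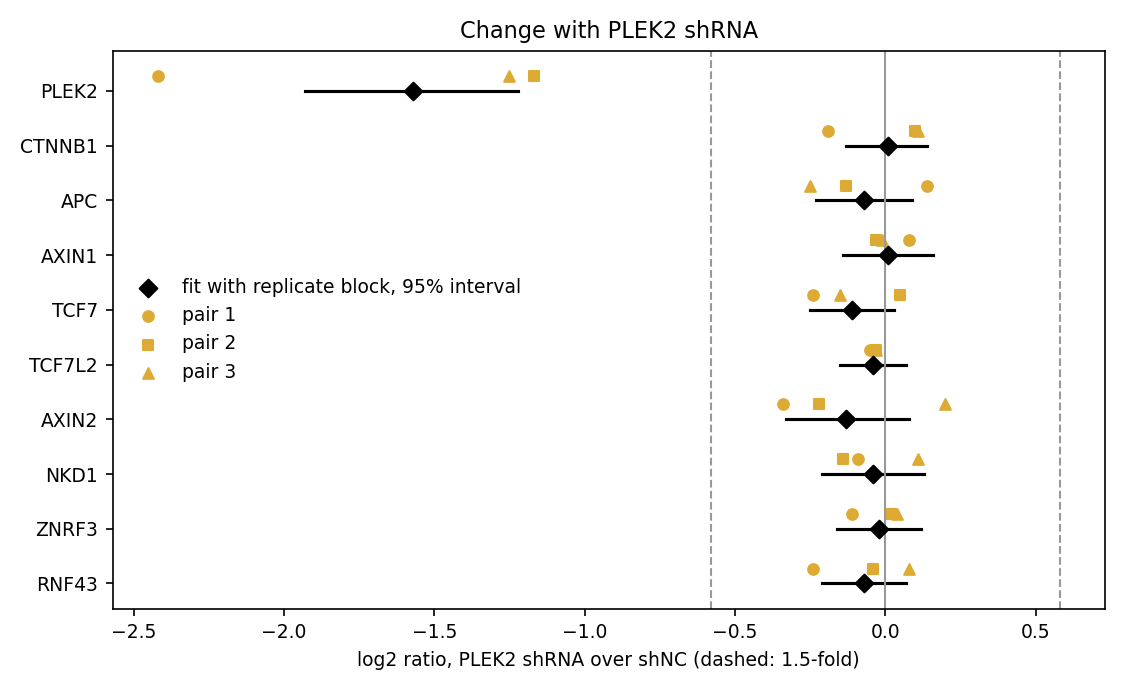
Log2 ratio of PLEK2 shRNA over shNC for PLEK2 and the 9 tested Wnt genes. Black diamonds and lines are the fit with the replicate block and its 95% interval, yellow points are the ratios within the 3 pairs, and dashed lines mark 1.5-fold (0.58). PLEK2 lies at -1.57, and every Wnt interval includes 0 and stays inside the dashed lines.

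The spread between libraries was shared among some of the genes. Over the 6 libraries, Pearson's r of log2 CPM between AXIN2 and RNF43 was 0.92, and it was 0.88 over the 4 libraries left without the 2 farthest from the median of AXIN2. NKD1 and ZNRF3 correlated with AXIN2 at 0.71 and 0.67 (0.52 and 0.44 over those 4 libraries). Among the 6 pairs of the feedback genes r ran from 0.47 to 0.92 with a median of 0.69, and over the 20 pairs of a feedback gene with CTNNB1, APC, AXIN1, TCF7 or TCF7L2 it ran from -0.55 to 0.56 with a median of 0.04. Among 9747 genes with a mean of at least 10 CPM, those with the highest r with AXIN2 were AFDN (0.99), HNRNPF (0.987), ARFGEF3 (0.975), POLG (0.974) and NBPF26 (0.969). These values describe 6 libraries that share their replicate numbers, depth and preparation, and with so few points high values arise in many genes.

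The wider pathway was followed through a list of 115 genes by role, which includes the 10 genes above. Of these, 103 were in the table and 82 passed the filter on low counts. The count called was 0 of 82 both without the block and with it. At an unadjusted p under 0.05 there were 2 of 82 without the block (2.44%, LRP6 and KREMEN2), beside the 3.09% of all tested genes. With the block there were 18 of 82 (22.0%), beside 18.3% of all tested genes, 7 higher and 11 lower with PLEK2 shRNA. Library totals in place of TMM turned that split to 11 higher and 7 lower. The groups did not overlap in 7 of 82 genes (8.54%), and 38 of 82 (46.3%) had the same direction in all 3 pairs, both near the shares of all tested genes given above.

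Among ligands, of which 11 were tested, WNT16 was the highest with 36.7, 29.45 and 25.79 FPKM with shNC and 41.33, 31.3 and 29.53 FPKM with PLEK2 shRNA. Its log2 fold change with the block was 0.13 (adjusted p 0.24 from edgeR). WNT10B followed with 8.35 ± 0.94 and 9.06 ± 0.19 FPKM (SD, n = 3 each). WNT9A had the smallest p of the ligands, with a log2 fold change of -0.28 (adjusted p 0.129 from edgeR with the block). The groups overlapped for these 3 ligands. The transcripts of the genes for ligand secretion, WLS and PORCN, had overlapping ranges. WLS had 32.52 ± 1.67 FPKM with shNC and 34.19 ± 2.24 FPKM with PLEK2 shRNA. PORCN had 6.37 ± 1.51 and 5.89 ± 1.07 FPKM.

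Of the 14 receptors tested, 1 had an unadjusted p under 0.05. LRP6, the co-receptor of Frizzled, stood at 43.74, 40.3 and 34.48 CPM with shNC and at 50.03, 47.76 and 44.74 CPM with PLEK2 shRNA, without overlap. Its log2 fold change with the block was 0.27 (standard error 0.07, adjusted p 0.0759 from edgeR), and it was called with library totals and the block (0.30, adjusted p 0.0457). The receptors with the highest FPKM were RYK (24.94 ± 0.46 and 27.48 ± 1.76 FPKM) and LRP5 (18.27 ± 2.6 and 17.95 ± 2.59 FPKM). RYK was also without overlap, at 68.68 to 72.09 CPM with shNC and 73.32 to 80.74 CPM with PLEK2 shRNA. Its log2 fold change with the block was 0.11 (adjusted p 0.348 from edgeR). Of all tested genes, 9.21% had ranges that did not overlap.

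DKK1, a secreted antagonist that blocks LRP co-receptors, was one of the most abundant transcripts of the list, with 187.21, 155.36 and 151.79 FPKM with shNC and 193.37, 166.37 and 157.4 FPKM with PLEK2 shRNA. The groups overlapped and its log2 fold change with the block was 0.03 (adjusted p 0.778 from edgeR). NOTUM, an enzyme that inactivates Wnt ligands, had 4.06 ± 1.04 and 3.37 ± 0.84 FPKM. Among membrane and Dishevelled regulators, DVL1 (64.29 ± 10.56 and 59.58 ± 5.23 FPKM) and CSNK1G2 (46.15 ± 5.24 and 44.83 ± 3.88 FPKM) were the highest. KREMEN2, a co-receptor of DKK1, stood at 10.36, 9.6 and 9.9 CPM with shNC and at 7.69, 9.07 and 7.08 CPM with PLEK2 shRNA, without overlap, with a log2 fold change of -0.33 (adjusted p 0.194 from edgeR with the block).

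In the fit with the block, the smallest adjusted p of the list were those of CREBBP and GSK3A, whereas without the block the smallest p were those of LRP6 and KREMEN2. GSK3A, a kinase that phosphorylates β-catenin, stood at 169.07, 190.5 and 199.89 CPM with shNC and at 121.37, 173.12 and 164.68 CPM with PLEK2 shRNA. The groups overlapped, and each knockdown library lay below its partner (log2 ratios -0.48, -0.14 and -0.28). Its log2 fold change with the block was -0.30 (standard error 0.06, adjusted p 0.051 from edgeR). Without PLEK2 shRNA replicate 1 the fit without the block gave -0.14, against -0.29 with all libraries, and with replicate 1 left out of both groups the block gave -0.20. GSK3B, the paralog with the same activity, was then looked up. It stood at 92.81, 82.79 and 76.3 CPM with shNC and at 92.82, 97.7 and 95.91 CPM with PLEK2 shRNA, with a log2 fold change of 0.19 (adjusted p 0.168 from edgeR with the block). The paralogs thus had values of opposite sign, and neither was called. CSNK1A1, the kinase that primes β-catenin for GSK3, had 80.36 ± 4.89 and 87.39 ± 4.94 FPKM.

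CREBBP, a histone acetyltransferase that β-catenin recruits, stood at 163.27, 201.51 and 167.9 CPM with shNC and at 94.73, 162.54 and 149.12 CPM with PLEK2 shRNA. The groups did not overlap on this scale, by a narrow gap, but they did in FPKM, and the lowest library was PLEK2 shRNA replicate 1. Its log2 fold change with the block was -0.42 (standard error 0.09, adjusted p 0.0505 from edgeR), and within pairs the log2 ratios were -0.79, -0.31 and -0.17. The blocked value was -0.24 when both libraries numbered 1 were dropped, and without PLEK2 shRNA replicate 1 the fit without the block gave -0.19, against -0.39 with all libraries. BCL9L, which bridges β-catenin to its transcriptional machinery, had a log2 fold change of -0.23 (adjusted p 0.0821 from edgeR with the block) and 48.84 ± 4.89 and 42.94 ± 8.02 FPKM. The block gave -0.15 for BCL9L without replicate 1, and the fit without the block gave -0.07 without PLEK2 shRNA replicate 1, against -0.22 with all libraries.

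These genes near the threshold moved with the settings of the fit. Library totals with the block called 4 of the 82 genes (4.88%), beside 1.48% of all tested genes. They were GSK3A, CREBBP, LRP6 and TNKS2, a tankyrase that destabilizes AXIN proteins. With replicate 1 left out of both groups the fit with the block called 8 of the 83 list genes tested there (9.64%), beside 4.06% of all tested genes. CREBBP, GSK3A, DVL1 and NKD2 were lower and LRP6, TNKS2, FBXW11 and GSK3B higher. Without replicate 2 it called 0 of 82, beside 0.138% of all tested genes, and without replicate 3 it called 2 of 83 (2.41%), CREBBP and GSK3A, beside 2.29%. The count called among the 9 genes was 0 in each of these fits.

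**Figure D4:**
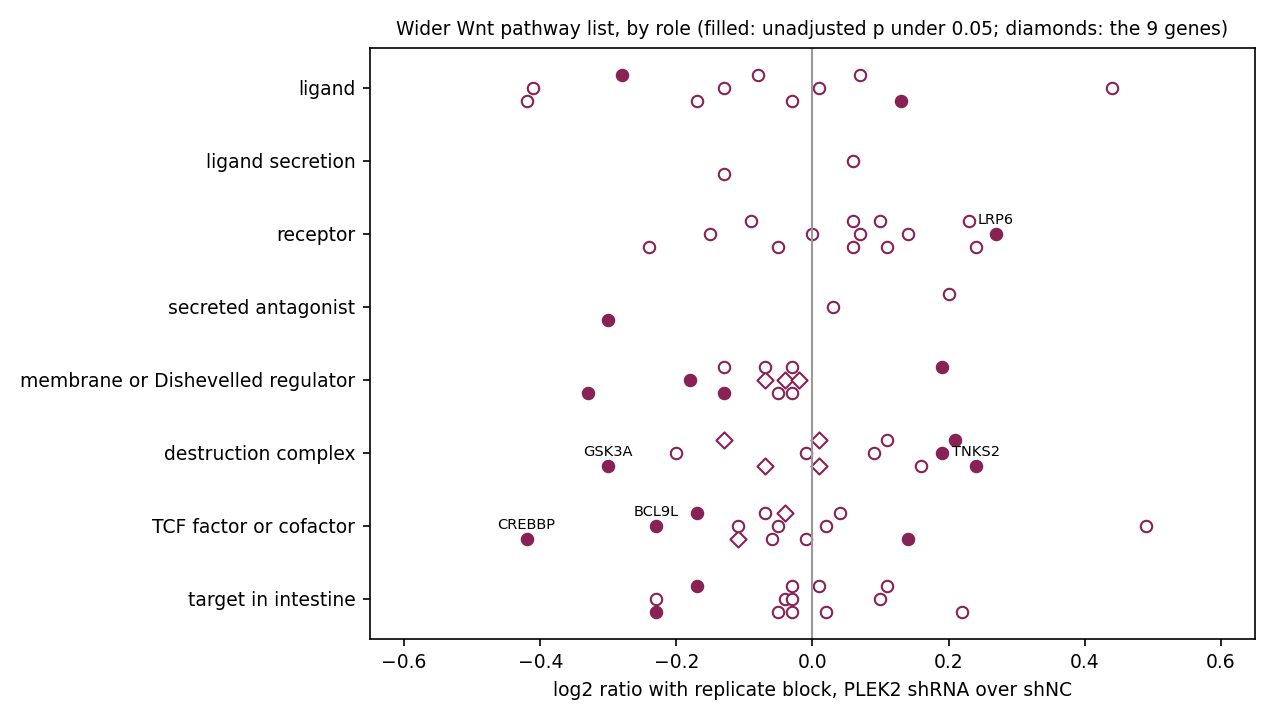
Log2 ratio of PLEK2 shRNA over shNC with the replicate block for the 82 tested genes of the wider list, by role. Filled points have an unadjusted p under 0.05 and diamonds are the 9 genes. All 9 diamonds are open and lie between -0.13 and 0.01, and points lie on both sides of 0 in each role.

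Other known targets in the intestine ranged widely in level, from PROX1 at 0 FPKM and MMP7 at 0.78 FPKM in shNC to CCND1. CCND1, which encodes cyclin D1, had 277.12 ± 17.35 FPKM with shNC and 251.35 ± 16.89 FPKM with PLEK2 shRNA, with overlap and a log2 fold change of -0.17 (adjusted p 0.152 from edgeR with the block). CD44, a surface receptor for hyaluronan, had 165.85 ± 26.57 and 166.6 ± 37.66 FPKM. PPARD had the smallest p of the 13 targets tested, with a log2 fold change of -0.23 (adjusted p 0.132 from edgeR with the block). MYC, named after its values were seen, had 103.27 ± 10.22 and 103.04 ± 4.79 FPKM.

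Marker genes were looked up to describe the cells, and they do not identify the line. Of 8 colon epithelial markers, 6 had over 10 counts in every library, and their summed level was 5060 to 5810 FPKM in shNC and 4220 to 5380 FPKM in PLEK2 shRNA, mostly from keratins. VIL1 and LGALS4, markers of differentiated colon epithelium, were near 0 (0.04 and 0.08 FPKM). Markers of fibroblasts summed to 4.36 to 6.04 FPKM, nearly all COL1A1, those of leukocytes to 0.56 to 0.84 FPKM and those of endothelium to 0.05 to 0.19 FPKM over the 6 libraries. These sums cover the markers present, which were 5 of 6 for fibroblasts and 3 of 4 for leukocytes. In these bulk libraries fewer cells of a kind and less RNA per cell cannot be told apart.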

How the data were processed

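HCT116 libraries with shNC (n = 3) and PLEK2 shRNA (n = 3) were grouped by the treatment in the labels and numbered by the titles. The authors deposited an estimated count per gene and library, without normalization, and a value scaled to length and library total. The header gives that second value no unit. It was read as the authors' FPKM from its proportion to the counts. Group means that the authors deposited beside them were not used, and 0 per-sample columns were left without a sample. The submitters' processing notes name HISAT2 2.0.4, Bowtie2 2.2.5, RSEM 1.2.12 and DESeq2 1.4.5 with no role, and the mouse build GRCm38.p6. The gene identifiers in the table are human, so the build behind the counts is uncertain. The annotation and the strand setting are not given in the sources used here, so reads of overlapping genes could be divided between them. Whole numbers made up 84.2% to 85.4% of a library's counts.

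Counts were rounded, filtered with filterByExpr defaults and scaled by TMM (factors 0.984 to 1.021), and the groups were compared over all 12959 genes kept with the quasi-likelihood test of edgeR 4.0.16 in R 4.3.3, two-sided, with Benjamini-Hochberg adjustment. The fit without a block was the one planned as main. An exact permutation test of 3 against 3 cannot give a two-sided p below 0.1 and was not used. Only the fits with the block treated libraries as paired by replicate number. Each library's deviation from its group mean, over 10161 genes, had an r of 0.736, 0.558 and 0.554 with that of its same-numbered partner and of -0.629 to 0.358 with other libraries of the other group. The labels state no shared day or culture, so the pairing comes from the shared numbers and these values. Values of the blocked fit are therefore given as well. For many genes the adjusted p printed is that of the blocked fit alone, which is not the main one. The smallest mean count of a tested Wnt gene was 442, so counting error alone left a coefficient of variation of 1.53% to 4.76%. The tests were tried on simulated counts with 200 changed genes, whose changes were larger than those of the Wnt genes. A minimum recovery was set for the blocked fits only, not for the main fit. The trial therefore says nothing on changes as small as those of the Wnt genes. Alternatives were DESeq2 1.42.0 (size factors and Wald test), library totals, other filters, the block, limma-trend (limma 3.58.1) on log2(FPKM + 1) and log2(FPKM + 0.1), and leaving out libraries.

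The 10 genes were given by name. The wider list was written from general knowledge, and both were chosen with earlier results of these data known, so their counts are not independent support of any pattern. WNT8A, RSPO2, RSPO3, FZD10, SFRP4, SOST, APCDD1, LEF1, TLE4, CDX1, OLFM4 and TDGF1 are not analysed here. By rule, all 10 genes were named, and in each role any gene called, the 2 with the highest mean FPKM and the 1 with the smallest unadjusted p in the blocked fit, plus the 5 genes most correlated with AXIN2. The same was planned for ASCL2, which lies at 0. Other genes (GSK3B, TNKS2, FBXW11, NKD2, LGR5, MYC, PROX1 and MMP7) were named after their values were seen. Gene positions come from GENCODE 44 on GRCh38, promoter sequences from RefSeq and the shRNA sequence from the study's oligonucleotide table.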

Additional observations from a re-analysis of the deposited data

How the results depend on the processing

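The count of Wnt genes called was 0 under all 20 alternatives. It was taken over 9 genes in 19 of them, and over the 6 with an adjusted p in DESeq2's Wald test with the block. The replicate block changed no call among them. Many alternatives without the block called 0 genes in the whole table, as given below, so a count of 0 there says nothing particular to the Wnt genes. The adjusted p-values of the Wnt genes ran from 0.146 to 1 over the alternatives with edgeR, limma and DESeq2. The log2 fold changes of AXIN2 and TCF7 stayed below 0 in all 20, at -0.27 to -0.01 and -0.18 to -0.05. Signs of values near 0 turned. ZNRF3 was at 0.02 with library totals, 0.01 with the replicate block and library totals, and 0.02 with limma-trend on either FPKM scale, and TCF7L2 was at 0.00 on both FPKM scales. Leaving out 1 library, without the block, moved ZNRF3 from -0.07 to 0.03, RNF43 from -0.14 to -0.01, NKD1 from -0.09 to 0.02, CTNNB1 from -0.02 to 0.08, APC from -0.29 to 0.12, AXIN1 from -0.04 to 0.06 and TCF7L2 from -0.08 to 0.01. With the replicate block, signs turned without replicate 1 for ZNRF3 (0.03), RNF43 (0.03) and AXIN1 (-0.01), without replicate 2 for NKD1 (0.02) and CTNNB1 (-0.03), and without replicate 3 for CTNNB1 (-0.04) and APC (0.03). Without PLEK2 shRNA replicate 1, 5 of the 9 were above 0, and without PLEK2 shRNA replicate 2, 0 were. The count of the wider list was 0 without the block and with it, 4 with the block and library totals, 1 (GSK3A, of 42 with an adjusted p) with the block and DESeq2's Wald test, 8, 0 and 2 with the block and without replicates 1, 2 and 3, and 0 with any 1 library left out without the block. Over all genes the count was 0 in the main fit (400 at an unadjusted p under 0.05 from edgeR). Without the block it was also 0 with DESeq2's size factors, library totals, either other filter and limma-trend on either FPKM scale. PLEK2 was thus not called in these fits either. It was 12 with DESeq2's Wald test, 110 with the replicate block and 192 with the block and library totals. With the block it was 85 with DESeq2's size factors and 57 with the Wald test. With 1 library left out it ran from 0 to 1 (without PLEK2 shRNA replicate 1), and with the block it was 528, 18 and 297 without replicates 1, 2 and 3. The cause was not tested. With library totals and the block the median change over all genes was 0.03, and with limma-trend it was 0.026 to 0.031. Depth limits ASCL2 and LGR5.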
